A study of Mus musculus with 4 samples.

Results

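Finer cluster 1 held 12940 of the 74758 deposited microglia (the brain's resident macrophages) of 20 mice. Its members were all cells that the deposited annotation places in cluster 1 of the finer of 2 Seurat clusterings (resolution 0.4, 9 clusters), and the clustering used expression but not the group of a mouse. The working name of the cluster is antibody-responding metabolic microglia, with Mif, Ldha and Cox5a as its markers. The experiment asked how microglia of wild-type mice and of mice with amyloid pathology respond within 24 h to an antibody that activates the receptor TREM2. There were 5 groups of 4 mice each, given 10 mg/kg of antibody intravenously and taken at an age of 8 months. ATV:ISO and ATV:4D9 were each given to a group of WT;TfRmu/hu mice. AppSAA;TfRmu/hu mice, whose App gene carries familial Alzheimer's disease mutations, formed the other 3 groups, treated with ATV:4D9, with 4D9 or with ATV:ISO. All animals were on a C57BL/6J background. Controls included, they all carried TfRmu/hu, a transferrin receptor with a human part. The brain-shuttle (ATV) site in the Fc domain of the antibody binds this part. No WT group received 4D9. The isotype group is labelled ATV-DNP02 in the deposited annotation and was read as ATV:ISO, an antibody of the same format that does not bind TREM2. The study lists male mice, and the annotation records 1 mouse of the WT ATV:ISO group as female. Brain tissue (cortex by one deposited text, cortex and hippocampus by another) was sorted for CD11b+ cells, with CD45 named as a further gate in only one of the texts, so that every share below is a share of sorted cells. There were 4 pools with 1 mouse per group in each, and the cells were assigned to mice by CellPlex tags.

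TREM2 is a lipid-sensing receptor of microglia that signals through the adaptor TYROBP and the kinase SYK, and 4D9 binds and cross-links it. Microglia that meet amyloid or an activating signal raise glycolysis, mitochondrial respiration, protein synthesis and, in part, division. In disease-associated microglia (DAM) homeostatic genes such as P2ry12 fall and genes such as Apoe, Clec7a and Axl rise. An interferon response, marked by Isg15 and the Ifit genes, is a separate state that microglia can enter.

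The marker genes were present in every mouse, but they set the cluster apart only weakly in the mice that held most of its cells. Levels are given in CPM, the UMIs (unique molecules) of a gene scaled to a common total for each set of summed cells, and a log2 ratio compares cluster 1 with all other cells of the same mouse after adding 1 CPM to both. Mif, which encodes the cytokine macrophage migration inhibitory factor, stood in the WT ATV:4D9 mice at 775, 573, 791 and 787 CPM in cluster 1 (pools 1 to 4) and at 669, 503, 691 and 679 CPM in the other cells. In the AppSAA ATV:4D9 mice it stood at 893, 743, 801 and 789 CPM against 769, 617, 707 and 647 CPM. Cluster 1 was thus higher in all 8 mice given ATV:4D9, by log2 ratios of 0.18 to 0.29. The gap was wider in the WT ATV:ISO mice, with Mif at 306, 417, 533 and 403 CPM in cluster 1 against 141, 156, 151 and 148 CPM. Of all 20 mice, only the AppSAA 4D9 mouse of pool 4 had less Mif in cluster 1 than in its other cells (log2 ratio -0.11). Ldha, the lactate dehydrogenase subunit that turns pyruvate into lactate, was higher in cluster 1 in 20 of 20 mice, with log2 ratios of 0.08 to 0.29 in the mice given ATV:4D9 and of 0.69 to 1.46 in the WT ATV:ISO mice. Cox5a, a subunit of respiratory complex IV, went against the label in the WT ATV:4D9 mice, where it stood at 337, 282, 294 and 297 CPM in cluster 1 and at 350, 283, 307 and 304 CPM in the other cells (log2 ratios -0.06 to -0.00). It was higher in cluster 1 in the other 16 mice, so that the 3 markers fitted the cluster only in part.

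**Figure D1:**
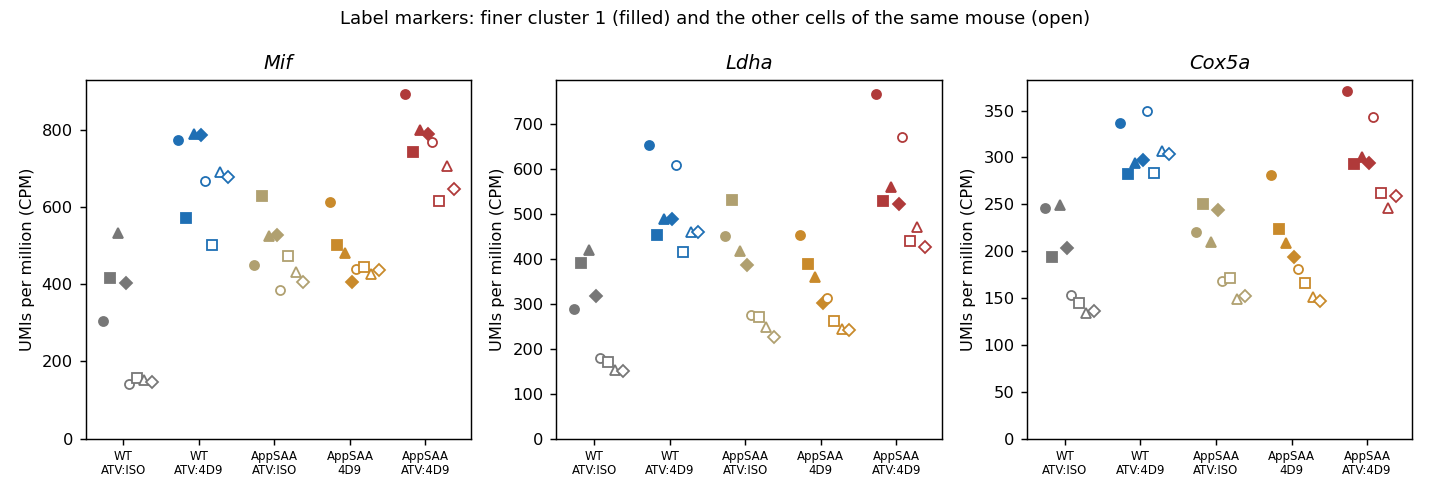
Level of Mif, Ldha and Cox5a (y axis, CPM) in each mouse of the 5 groups (x axis), with filled symbols for finer cluster 1 and open symbols for the other cells of the same mouse; circles, squares, triangles and diamonds are pools 1 to 4. The other cells of the ATV:4D9 mice lie close to cluster 1, while those of the WT ATV:ISO mice lie far below it, as for Mif with 141 to 156 CPM against 306 to 533 CPM.

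Since the 3 marker genes rose together with ATV:4D9 inside the cluster, as described below, the 250 bases before their start sites were searched on both strands for CACGTG, the E-box to which Myc and HIF proteins can bind. The motif was present before the first of the 2 Ldha start sites in the RefSeq table, on the plus strand of GRCm38.p6 at chr7:46845554-46845803. It begins 145 and 48 bases before the start and is written in capitals.
Ldha: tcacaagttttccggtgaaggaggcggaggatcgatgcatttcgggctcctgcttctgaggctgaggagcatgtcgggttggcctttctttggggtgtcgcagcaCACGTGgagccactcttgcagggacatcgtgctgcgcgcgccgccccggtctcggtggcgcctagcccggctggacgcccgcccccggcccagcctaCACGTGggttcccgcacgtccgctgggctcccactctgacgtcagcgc
These letters were not in the windows of the second Ldha start, Mif or Cox5a. Of all 27025 symbols in the table, 6.86% held CACGTG, as did 10.8% of the tested genes with an entry, 4 of the 19 genes of a glycolysis list (21.1%), 2 of 19 of the Myc and ribosome biogenesis list (10.5%) and 2 of 14 of the chaperone list (14.3%).

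Cells of cluster 1 carried the defining genes of microglia. Tmem119, a membrane protein of microglia, stood at 1020 ± 92.9 CPM in cluster 1 of the ATV:4D9 mice and 882 ± 176 CPM in their other cells (SD, n = 8). Cx3cr1, the fractalkine receptor, stood at 2810 ± 444 CPM in cluster 1 of the ATV:4D9 mice and 2480 ± 428 CPM in the others. Both were higher in cluster 1 in 8 of 8 mice, by median log2 ratios of 0.19 and 0.18. Of the 8 defining genes, 6 were higher in 8 of 8 mice (list median 0.08), beside 29.6% of all genes with at least 50 CPM. P2ry12 stood at 1000 against 1040 CPM in WT and at 709 against 666 CPM in AppSAA mice given ATV:4D9. Against clusters 0 and 2 alone the list was lower (medians -0.62 and -0.43), with 7 of 8 members lower and 1 higher in every mouse. Markers of neurons summed to 0.464 to 1.11 CPM and those of lymphocytes to 0.193 to 0.583 CPM. Border macrophage markers summed to 9.76 to 27.5 CPM and monocyte and neutrophil markers to 9.07 to 29.0 CPM. Markers of astrocytes (62.1 to 97.7 CPM, mostly Slc1a3), oligodendrocytes (78.2 to 102 CPM) and endothelium (615 to 805 CPM, mostly Bsg, which many cell types express) were at much the same level in the other cells of these mice. No gene of these lists was at 0 over the whole cluster, and the part of other cell types in the results below was not tested. The median cell of cluster 1 held 15366 UMIs, and 15.2% of its cells held over 25000. Within a mouse, the ratio of the median to that of the other cells was 0.924 to 0.99 in the WT ATV:4D9 group, 1.09 to 1.24 in the AppSAA ATV:4D9 group and 1.15 to 1.77 in the 12 mice without ATV:4D9. Of its cells, 193 (1.49%) shared a barcode sequence with a cell of another pool, against 1.46% of all cells.

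Cluster 1 was rare without ATV:4D9 and made up 28.2% to 46.5% of a mouse's cells with it. In the WT ATV:ISO mice it held 1.82%, 1.62%, 1.04% and 1.77% of a mouse's cells (pools 1 to 4), and in the WT ATV:4D9 mice 41.0%, 46.5%, 40.4% and 46.4%. In AppSAA mice it held 2.19%, 1.81%, 2.58% and 1.70% with ATV:ISO and 2.29%, 2.90%, 2.22% and 2.94% with 4D9. With ATV:4D9 the AppSAA mice reached 34.8%, 28.2%, 28.8% and 30.0%. No mouse given ATV:4D9 overlapped with any mouse given the other antibodies, whereas the AppSAA ATV:ISO and 4D9 groups did overlap. Together the 8 mice given ATV:4D9 supplied 12036 of the cluster's cells (93.0%, or 92.2% with all mice weighted equally).

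Against ATV:ISO, ATV:4D9 raised the share by 42.0 percentage points in WT mice (43.58% ± 3.32 against 1.565% ± 0.36, SD, n = 4 each) and by 28.4 points in AppSAA mice (30.45% ± 2.99 against 2.071% ± 0.399). Both differences had p = 0.0286 in a two-sided exact permutation test over mice, the smallest value that 4 mice against 4 allow, and an adjusted p of 0.0429 over 6 comparisons. With the pool as a block, which pairs the mice, the 4 share differences called here kept their size but had an adjusted p of 0.188 and lost the call, since an exact sign-flip permutation test over 4 pools cannot go below p = 0.125. The AppSAA ATV:4D9 share exceeded that with 4D9 (2.588% ± 0.384) by 27.9 points with the same exact p and adjusted p. Between 4D9 and ATV:ISO the difference was 0.518 points, positive in 3 of 4 pools (exact permutation p = 0.114, adjusted p = 0.137). The genotypes did not separate with ATV:ISO, where AppSAA minus WT was 0.505 points (exact permutation p = 0.143). With ATV:4D9 they did, the AppSAA share being 13.1 points below that of WT mice and lower in all 4 pools (exact permutation p = 0.0286, adjusted p = 0.0429). The rise itself was also smaller in AppSAA mice. Taken within pools it was 28.4 ± 2.97 points in AppSAA and 42.0 ± 3.16 points in WT mice (SD, n = 4 pools), a difference of -13.6 points (exact permutation p = 0.0286), and on the scale of log2 odds it was 4.39 against 5.63 (difference -1.25, exact permutation p = 0.0286). This test did not pair the genotypes by pool, and a paired test over 4 pools could not pass the threshold, since its smallest p is 0.125. The ranges of the rise, 26.3 to 32.6 and 39.2 to 44.9 points, did not overlap.

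**Figure D2:**
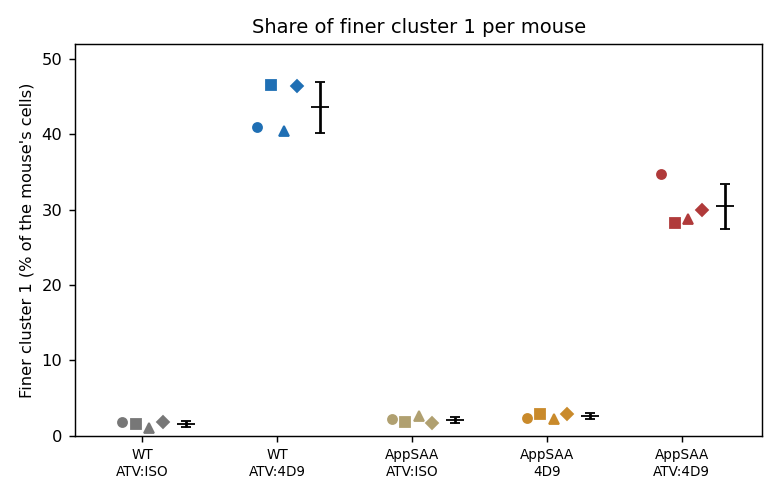
Share of finer cluster 1 among the cells of each mouse (y axis, percent) by group (x axis); circles, squares, triangles and diamonds are pools 1 to 4, and the bars give mean ± SD of 4 mice. The 12 mice without ATV:4D9 lie between 1.04% and 2.94%, and those given it between 28.2% and 46.5%.

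In the mice given ATV:4D9, the widest gaps between cluster 1 and the pooled other cells were of genes that were lower in it, while small differences ran more often upward. The pooled other cells include the cycling and interferon-rich clusters 4, 5 and 7, and single clusters are compared further on. Since the clusters were made from these genes, the comparison with the other cells is a description without a test. Among 3191 genes with at least 50 CPM, 943 were higher in cluster 1 in all 8 of these mice (29.6%) and 495 were lower in all 8 (15.5%), yet none was more than 2-fold higher by its median log2 ratio, while 59 were more than 2-fold lower. A gene could meet the 50 CPM on either side, and 48 of the 59 met it only in the other cells. The median over all described genes was 0.03. In all 20 mice together, 281 genes (8.81%) were higher and 39 (1.22%) lower.

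The 10 genes with the highest ratios had various roles. Neu1, the lysosomal sialidase, led with 51.5, 48.5, 51.7 and 50 CPM in the WT ATV:4D9 mice against 31.3, 29.6, 28.4 and 30.5 CPM in their other cells, and with 59.6, 60.5, 69.2 and 54.6 CPM in the AppSAA ATV:4D9 mice against 44.5, 48.7, 55.2 and 45.9 CPM. Cluster 1 and the other cells were apart in the WT group and overlapped slightly in the AppSAA group. Cluster 1 was higher within every mouse, as the choice of these 10 genes required (median log2 ratio 0.55). Against single clusters, Neu1 was higher in cluster 1 than in clusters 4, 7 and 8 (0.91, 1.17 and 0.89) and close to clusters 0, 2, 3, 5 and 6 (-0.19 to 0.01). Arl8a likewise stood at 0.62, 0.91 and 0.56 against clusters 4, 7 and 8 and at 0.01 to 0.08 against the rest. The next were Arl5c (0.54) and Arl8a (0.50), small GTPases of membrane traffic, and Selenos (0.48) and Hyou1 (0.48), a selenoprotein and a chaperone of the endoplasmic reticulum. Cstb, a cathepsin inhibitor, stood at 336 ± 68.6 against 242 ± 49.3 CPM (0.47, SD, n = 8). C5ar1, the receptor for the complement fragment C5a, stood at 310 ± 45.8 against 223 ± 45.6 CPM (0.47), and its gap was wider in the 12 mice without ATV:4D9 (median 1.53, higher in 12 of 12). Uap1l1 (0.47), Uso1, a tether of vesicle transport (0.46), and Ppan, a factor of ribosome assembly (0.45), completed the 10 highest. Against single clusters, medians ranged from -0.23 to 2.42 for Arl5c, -0.04 to 0.9 for Selenos, -0.49 to 1.78 for Cstb and -0.23 to 0.94 for Uap1l1. Hyou1, C5ar1, Uso1 and Ppan were higher than in each single cluster, with lowest medians of 0.17, 0.1, 0.08 and 0.24.

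The lowest genes were those of mitosis. Mki67, the proliferation marker Ki-67, stood in cluster 1 of the WT ATV:4D9 mice at 4.22, 4.01, 6.42 and 5.94 CPM and in their other cells at 201, 202, 228 and 229 CPM. In AppSAA ATV:4D9 mice it stood at 7.22, 6.07, 6.92 and 8.79 CPM against 122, 142, 136 and 159 CPM. The separation was complete, with a median log2 ratio of -4.65. Esco2 (-4.46), Prc1 (-4.13), Cenpf (-4.12), Pbk (-4.09), Rrm2 (-3.86), Birc5 (-3.84), Pclaf (-3.73), Knl1 (-3.53) and Top2a (-3.36) followed, genes of sister chromatid cohesion, spindle and kinetochore and of DNA supply. Of the 22 G2 and mitosis genes, 5 reached 50 CPM on either side, and all 5 were lower in 8 of 8 mice. Mki67, Cenpf, Birc5 and Top2a reached it only in the other cells, so the floor set their direction. The sum of all 22 was 85.5 to 124 CPM in cluster 1 and 789 to 1380 CPM in the other cells. Of the 24 S phase and replication genes described, 17 were lower in 8 of 8 and 0 higher, with a list median of -0.74. Rrm2, Ccne1, Ccne2 and Tyms passed only through the other cells. The sum of all 27 was 1690 to 1990 against 2020 to 4080 CPM. The E2F site is a short element before many replication genes, and it was searched as TTTGGCGC or TTTCCCGC on both strands. The windows of Mcm5 (plus strand, chr8:75109259-75109508) and Mcm6 (minus strand, chr1:128359706-128359955), both subunits of the replicative helicase, are shown because these genes moved with treatment inside the cluster as described below. Capitals mark the matches, on the reverse strand in Mcm5.
Mcm5: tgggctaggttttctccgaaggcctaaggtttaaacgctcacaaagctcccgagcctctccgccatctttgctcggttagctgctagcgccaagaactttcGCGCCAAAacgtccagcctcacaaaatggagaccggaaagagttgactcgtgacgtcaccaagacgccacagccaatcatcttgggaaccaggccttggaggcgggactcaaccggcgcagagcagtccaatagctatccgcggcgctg
Mcm6: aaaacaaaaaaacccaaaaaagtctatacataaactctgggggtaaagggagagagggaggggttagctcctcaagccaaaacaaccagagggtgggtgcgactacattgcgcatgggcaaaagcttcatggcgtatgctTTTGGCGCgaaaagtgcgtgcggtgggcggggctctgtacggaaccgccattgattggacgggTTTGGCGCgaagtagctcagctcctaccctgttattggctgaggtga
Either form of the site lay in 6 of 22 S phase genes with an entry (27.3%), in 3.23% of the tested genes and in 1.51% of all symbols.

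Interferon genes came next among the genes lower than in the pooled other cells. Of 17 described members of the interferon list, 15 were lower in cluster 1 in 8 of 8 mice and 1 was higher, with a median of -1.07. Rsad2, Ifit2 and Ifit3b met the 50 CPM only in the other cells. Against single clusters the list was lower only than in clusters 5 and 7 (medians -2.91 and -0.45), and it was higher than in clusters 0, 2 and 3 (1.81, 1.73 and 1.24, with 17 of 17 members in every mouse each), 4 and 8 (0.32 each) and 6 (0.51). Rsad2, the antiviral enzyme viperin, stood at 17.7 ± 9.13 CPM in cluster 1 and 112 ± 53.0 CPM in the other cells (-2.53, SD, n = 8), and Ifit3, which binds to antiviral signalling complexes, at 71.9 ± 38.8 against 261 ± 135 CPM (-1.87). Ifit2 (-2.05) and Ifit3b (-2.02) were lower too, and reads of Ifit3 and Ifit3b, near-identical copies, may be split between them. The interferon-stimulated element was searched on both strands as GAAA followed, after any 2 bases, by GAAA. It is shown for Isg15 (minus strand, chr4:156200819-156201068), a ubiquitin-like antiviral protein, for Ifit3 (plus strand, chr19:34583279-34583528) and for Cxcl10 (minus strand, chr5:92348890-92349139), a chemokine for T cells. The 3 matches in Isg15 overlap and those in Ifit3 read on the reverse strand.
Isg15: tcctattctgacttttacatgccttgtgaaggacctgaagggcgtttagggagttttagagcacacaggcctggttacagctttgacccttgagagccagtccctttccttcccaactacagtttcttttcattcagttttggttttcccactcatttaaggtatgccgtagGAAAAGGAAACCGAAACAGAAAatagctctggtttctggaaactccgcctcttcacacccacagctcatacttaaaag
Ifit3: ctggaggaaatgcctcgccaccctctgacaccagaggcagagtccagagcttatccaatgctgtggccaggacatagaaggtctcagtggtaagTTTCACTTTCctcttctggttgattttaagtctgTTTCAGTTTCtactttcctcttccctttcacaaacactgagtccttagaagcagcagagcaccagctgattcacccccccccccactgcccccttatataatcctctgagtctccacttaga
Cxcl10: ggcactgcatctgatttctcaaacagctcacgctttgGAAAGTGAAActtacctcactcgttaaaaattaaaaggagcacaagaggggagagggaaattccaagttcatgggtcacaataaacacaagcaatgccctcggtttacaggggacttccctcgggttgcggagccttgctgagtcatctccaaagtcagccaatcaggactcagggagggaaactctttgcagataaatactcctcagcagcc
The element lay in 9 of 15 interferon genes with an entry (60.0%), in 3.32% of the tested genes and in 3.46% of all symbols.

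Of the metabolic genes behind the cluster's name, those of glycolysis and of complexes I and III were more often higher than genes in general in the ATV:4D9 mice, by small amounts. Of 13 described glycolysis genes, 11 were higher in 8 of 8 mice and 0 lower (median 0.16), led by Aldoa, the aldolase (0.37), Hk2, a hexokinase (0.28), Slc16a3, a lactate transporter (0.24), and Eno1, the enolase (0.24). Nuclear genes of respiratory complex I were higher in 22 of 36 cases (median 0.10), those of complex III in 6 of 9 with 1 lower (0.12), those of complex IV in 4 of 11 (0.04) and those of ATP synthase in 6 of 15 with 2 lower (0.07). Beside the 29.6% of all described genes that were higher in 8 of 8 mice, the counts of complex IV and ATP synthase were near the background. Cox7b (0.22) and Atp5g1 (0.22) were the highest of complex IV and ATP synthase, and Cox7a2l was lower in 7 of 8 mice (-0.26). Genes of Myc and ribosome biogenesis (9 of 19 higher, median 0.19), cytosolic chaperones (9 of 18, 0.12) and the proteasome (19 of 31, 0.12) had no member lower in 8 of 8 mice. The DAM list as a whole did not lean either way (5 of 27 higher and 3 lower, -0.02). Its lowest members were Fabp5, a fatty acid carrier (-1.82), Spp1, osteopontin (-1.53), and Apoe, which was lower in 7 of 8 mice (-1.15). Fabp5 and Spp1 reached 50 CPM only in the other cells, so the floor set their direction. Spp1 stood at 19.8 against 28.7 CPM in WT and at 47.9 against 452 CPM in AppSAA mice given ATV:4D9. Lpl, lipoprotein lipase, stood at 230 ± 36.5 against 206 ± 30.7 CPM in WT and at 306 ± 65.7 against 288 ± 34.2 CPM in AppSAA mice given ATV:4D9 (SD, n = 4 each). Apoe stood at 871, 1040, 1740 and 1410 CPM in cluster 1 of the AppSAA ATV:4D9 mice and at 3830, 6730, 9040 and 5540 CPM in their other cells. In the WT ATV:4D9 mice it stood at 493, 636, 1010 and 860 CPM against 597, 553, 1270 and 1030 CPM, and only there did the sides overlap.

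Compared with single clusters in the same mice, cluster 1 was close to finer clusters 4, 5 and 7 and far from the rest. Counts of list members against single clusters, here, above and below, have no share of all described genes beside them. Whether they exceed that background was not tested. For cluster 0 alone, counts over all described genes are given at the end. Against cluster 4, 3 genes were more than 2-fold higher and 73 lower, and the median absolute log2 ratio was 0.11 (8 mice). For clusters 5 and 7 these were 0 and 88 genes (0.17) and 3 and 122 genes (0.19). The widest gaps between cluster 1 and clusters 4 and 7 were in the division lists, with medians of -1.24 and -1.12 for the S phase list and of -3.23 and -5.90 for the mitosis list. DAM genes were slightly higher in cluster 1 than in both (0.21 and 0.26, 19 of 27 members in every mouse), while interferon genes were higher than in cluster 4 (0.32, 11 of 17 members in every mouse) and lower than in cluster 7 (-0.45, 8 of 17). The gap to cluster 5 was mainly in the interferon list, with all 17 members lower in every mouse (-2.91). It also lay in the mitosis list (-1.19, 4 of 5 members lower in every mouse) and MHC class II genes (-0.53, 2 of 5 lower and 1 higher). H2-Aa and H2-Ab1 of the MHC class II list had reached 50 CPM only in the pooled other cells. Glycolysis (0.07, 0.18 and 0.13), complex I (0.05, 0.16 and 0.07) and the Myc list (-0.03, 0.15 and 0.18) barely differed between cluster 1 and clusters 4, 5 and 7.

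Against finer clusters 0 and 2, the difference in glycolysis was large, and that in other energy lists was smaller. Here 283 and 263 genes were more than 2-fold higher in cluster 1 and 68 and 73 lower. In the mice given ATV:4D9, cluster 0 held only 38 to 191 cells per mouse and cluster 2 only 39 to 170. Over all mice, the median cell of clusters 0 and 2 held 7173 and 8655.5 UMIs, against 15366 in cluster 1. The S phase list stood at 2.35 and 2.33, glycolysis at 1.28 and 1.30, Myc and ribosome biogenesis at 1.05 and 1.06, chaperones at 0.89 and 0.90, and complex IV at 0.55 and 0.75. Complex I stood at 0.45 and 0.57, the citric acid cycle at 0.27 and 0.42 and complex II at 0.19 and 0.33. Fatty acid oxidation (0.14 and 0.25) and the genes of the mitochondrial genome (-0.0 and 0.13) differed least. The homeostatic list was lower, by a median of -0.65 against cluster 0 (14 of 14 members in every mouse) and of -0.42 against cluster 2 (13 of 14). The TNF and NF-kB list and the immediate early genes, transcription factors and others that a stimulus switches on first, went opposite ways, at 2.16 and 1.55 against cluster 0 but at -0.47 and -1.56 against cluster 2. Against clusters 3 and 6, cluster 1 was low in DAM genes (-1.04 in 5 mice, and -1.58 in 4 mice with 25 of 27 members lower) and in MHC class II genes (-1.42 and -2.50). More genes were over 2-fold higher than lower in it, 347 against 44 for cluster 3 and 603 against 80 for cluster 6. The mice compared held 30 to 635 cells of cluster 3 and 58 to 129 cells of cluster 6. The S phase (2.51 and 2.48), Myc (1.29 and 1.33) and chaperone (1.01 and 1.15) lists were higher in cluster 1. Against cluster 8, cluster 1 was lower in the nuclear genes of complexes I (-0.48), III (-0.42) and IV (-0.60) and of ATP synthase (-0.55). Glycolysis barely differed (-0.09), and immediate early genes were higher in cluster 1 (3.13). Cluster 8 held 23 to 347 cells in each of these mice.

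**Figure D3:**
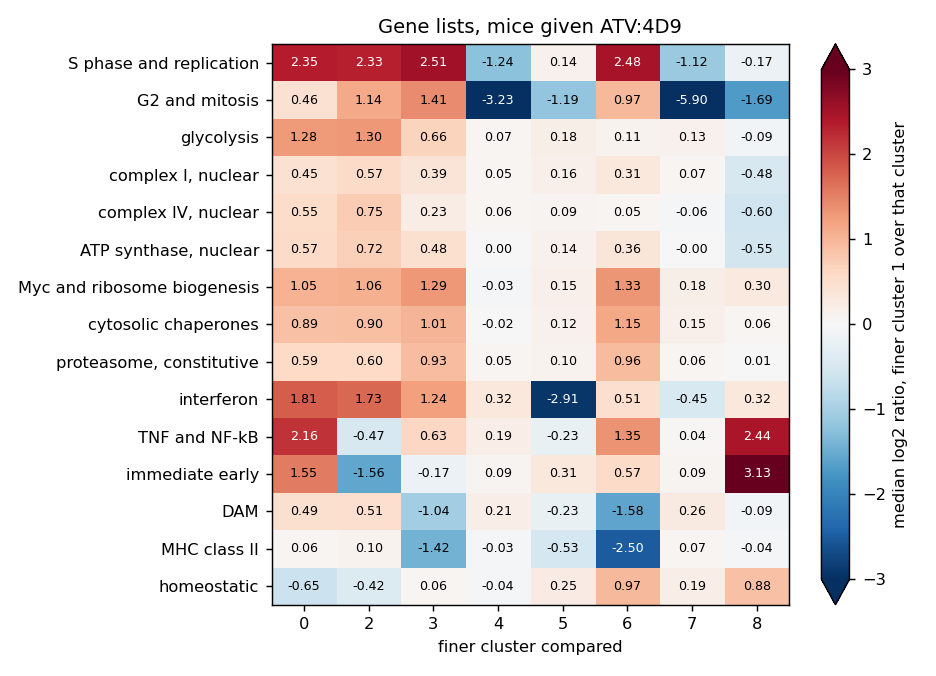
Median log2 ratio of finer cluster 1 over each other finer cluster (columns) for 15 gene lists (rows) in the mice given ATV:4D9 with at least 20 cells of both clusters; red is higher in cluster 1, blue is lower, and colours saturate at 3 while the printed values do not. The columns of clusters 4, 5 and 7 are mostly pale, with the widest gaps in the division lists (-3.23 and -5.90 for mitosis against clusters 4 and 7) and the interferon list (-2.91 against cluster 5).

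In the 12 mice without ATV:4D9, the few cells of cluster 1 stood out from the other cells in the opposite way for S phase genes, though not for mitosis genes. The median log2 ratio of the S phase list was 1.44 there, against -0.74 in the ATV:4D9 mice. Its sum was 699 to 999 CPM in cluster 1 and 311 to 390 CPM in the other cells there. With ATV:4D9 the sums were 1690 to 1990 and 2020 to 4080 CPM, so cluster 1 itself was lower without ATV:4D9. The interferon list had a median of 0.29 without ATV:4D9, against -1.07 with it. Mcm5 stood at 33.1, 36.9, 17.4 and 48.8 CPM in cluster 1 of the WT ATV:ISO mice and at 8.94, 6.57, 8.70 and 9.65 CPM in their other cells, without overlap. The lists of Myc and ribosome biogenesis (0.89), chaperones (0.59), TNF and NF-kB (0.64) and the proteasome (0.46) were also higher, beside a median over all described genes of 0.12. Mitosis genes were low (-1.06). MHC class II genes had a median of -1.12 but varied between mice, with Cd74 lower in 8 and higher in 4 of the 12. The DAM list had a median of -0.47, but its summed level differed in direction between genotypes. It was 33300 to 37800 CPM in cluster 1 of the WT ATV:ISO mice against 27500 to 28600 CPM in their other cells, and 37000 to 41200 CPM against 56100 to 64900 CPM in the AppSAA mice given ATV:ISO or 4D9. Across all 20 mice, 9 of 18 chaperone genes, 8 of 19 Myc and ribosome genes and 16 of 31 proteasome genes were higher in cluster 1 without exception, against 8.81% of all described genes.

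The sums of cluster 1 differed between treatments. The cluster was picked by expression, of the tested genes among others, and it was rare without ATV:4D9. Cells that changed and other cells falling into the cluster thus cannot be told apart. Rose and fell, as used below, compare the levels of groups. UMIs of cluster 1 were summed per mouse and 9414 genes were tested with edgeR's quasi-likelihood test with Benjamini-Hochberg adjustment. The sums held 1201 to 1968 cells in WT and 696 to 1700 cells in AppSAA mice given ATV:4D9, but 23 to 158 cells in the others. In AppSAA mice, 1766 genes (18.8%) differed between ATV:4D9 and ATV:ISO. Of these, 1059 rose (11.2%) and 707 fell (7.51%), 168 and 78 by more than 2-fold. Interferon, replication, energy and chemokine genes were among those that rose, and Ccl6, P2ry12 and immediate early genes among those that fell. With the pool as a block, which pairs the mice, 2837 of the 9414 genes differed. Counts of list members under the block, given below, stand beside this higher background. Without the AppSAA ATV:4D9 mouse of pool 1 the number was 1154, and without the AppSAA ATV:ISO mouse of pool 3 it was 963.

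All 21 tested interferon genes rose in cluster 1 of AppSAA mice with ATV:4D9 against ATV:ISO (median 1.59, beside -0.03 over all genes tested). The DAM list and part of the interferon list hold genes that the study names from these mice, so their direction is not independent evidence. Isg15 stood at 458, 236, 328 and 210 CPM with ATV:4D9 and at 69.4, 109, 55.7 and 51.8 CPM with ATV:ISO. The groups did not overlap (log2 fold change 2.28, SE 0.379, adjusted p = 1.58e-04). Cxcl10 stood at 2180, 982, 1350 and 1340 CPM against 351, 268, 331 and 595 CPM, again apart (2.04, SE 0.311, adjusted p = 6.22e-05). Cxcl11, a chemokine of the same receptor, stood at 138, 77.6, 81.3 and 106 CPM against 10.5, 2.20, 9.58 and 26.6 CPM (3.10, SE 0.533, adjusted p = 2.33e-04). Irf7, the transcription factor that amplifies interferon production (2.08), Ifit3 (2.07), Rsad2 (2.07) and Phf11a (2.21) rose by similar amounts, as did Ifi211 (3.10) and Ifi206 (2.32), DNA sensors whose near-identical copies make their counts uncertain. Il12b, a subunit of interleukin-12, rose from 0, 0, 0.912 and 0 CPM to 7.19, 3.87, 24.2 and 13 CPM (adjusted p = 0.0212). The summed list was 3970 to 6160 CPM in cluster 1 of these mice, 1450 to 2070 CPM with ATV:ISO and 6830 to 10300 CPM in the other cells of the ATV:4D9 mice.

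Replication genes rose together as well. All 26 tested members of the S phase list were higher with ATV:4D9 than with ATV:ISO in AppSAA mice (median 1.22), and 4 of 4 tested mitosis genes (1.09). Mcm5 stood at 111, 89.8, 98.9 and 105 CPM against 41.0, 49.5, 52.9 and 44.6 CPM, and Mcm6 at 143, 134, 122 and 132 CPM against 69.4, 64.9, 69.3 and 50.4 CPM. Neither gene overlapped between the groups. Dtl, which marks replication proteins for degradation, rose from 11.2 ± 5.93 to 35.7 ± 4.26 CPM (SD, n = 4 each, log2 fold change 1.73, SE 0.205, adjusted p = 2.82e-06), and Cdc6, which loads the helicase, from 3.33 ± 0.892 to 12.2 ± 1.55 CPM (1.94). Mki67 rose from 3.95 ± 0.882 to 7.25 ± 1.14 CPM (0.92, adjusted p = 0.043), against 122 to 159 CPM in the other cells of the ATV:4D9 mice.

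The energy genes of the cluster's name rose by less. Of 16 tested glycolysis genes 10 rose and 0 fell (median 0.45). Pkm, the last enzyme of glycolysis, stood at 1050, 749, 799 and 777 CPM with ATV:4D9 and at 436, 581, 512 and 486 CPM with ATV:ISO, without overlap (log2 fold change 0.86, SE 0.152, adjusted p = 3.24e-04). Gapdh (0.67) and Tpi1 (0.63), enzymes of the same pathway, rose too. Among the markers, Mif rose by 0.70 (SE 0.148, adjusted p = 0.00146), Cox5a by 0.56 (SE 0.129, adjusted p = 0.00327) and Ldha by 0.53 (SE 0.166, adjusted p = 0.027), with overlapping groups for Ldha alone. All 15 ATP synthase genes rose (0.44), 9 of 11 of complex IV with 1 fall (0.51), 22 of 37 of complex I (0.36) and 5 of 9 of complex III, while 0 of the 13 genes of the mitochondrial genome passed the test, and 3 rose with the pool as a block. Uqcrq of complex III (0.72), Ndufc1 of complex I (0.69), Atp5j2 of ATP synthase (0.68) and Cox6c of complex IV (0.59) led their lists. Chaperones rose in 14 of 19 cases (0.41), such as Hsp90ab1, at 2270 to 2800 CPM with ATV:4D9 and 1740 to 1910 CPM with ATV:ISO (0.57). Proteasome genes rose in 19 of 31 cases (0.35), and Myc and ribosome biogenesis genes in 6 of 25 (0.23), among them Npm1, nucleophosmin (0.54). With the pool as a block, 31 genes of complex I and 8 of 15 genes of the citric acid cycle rose, the latter from 2 without it. The block called more genes in general, as given above, so its counts stand beside a higher background. Fatty acid oxidation (1 of 17 rose), cholesterol synthesis (0 of 17), iron handling (1 of 11 rose and 1 fell) and the tRNA synthetases and ATF4 targets (6 of 23 rose) had medians of 0.13, -0.01, -0.05 and 0.10.

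Of 17 TNF and NF-kB genes 3 rose and 0 fell, Ccl12, Ccl2 and Tnf. Ccl12, a monocyte chemoattractant, stood at 6060, 3220, 4110 and 3420 CPM with ATV:4D9 and at 1350, 1970, 1170 and 1050 CPM with ATV:ISO, without overlap (1.71, adjusted p = 3.62e-04). Ccl2, its close relative, rose by 1.83 (adjusted p = 9.4e-05) and Tnf by 0.77 with overlapping groups (adjusted p = 0.0125). Among the 10 largest falls were Ccl6, a chemokine of the DAM list, at 150, 164, 154 and 161 CPM against 410, 644, 584 and 601 CPM (-1.73, SE 0.131, adjusted p = 4.79e-09), and Il4i1, an amino acid oxidase (-1.5). Gm13889 (-2.49), Nbl1 (-2.04), Gas2l3 (-1.68), Tcim (-1.63), Baiap2l2 (-1.63), Gm40841 (-1.5), Il1rl1 (-1.46) and Ephx1 (-1.43) were the others. Of 29 DAM genes 5 rose and 7 fell (-0.08), the latter including Ank, a pyrophosphate transporter (-1.15), and Lpl (-0.89). Of 14 homeostatic genes 3 fell and 2 rose. P2ry12, the purine receptor of resting microglia, fell from 1240, 964, 1480 and 1350 CPM to 454, 910, 679 and 792 CPM (-0.74, SE 0.143, adjusted p = 7.26e-04). Of 18 immediate early genes 5 fell and 1 rose, with Egr2 at -1.21. Of 15 genes of the TREM2 pathway 1 rose and 1, Trem2, fell. In the fit with the pool as a block, 5 of these 15 genes and 8 of the 18 immediate early genes fell. These counts stand beside the higher background of that fit. Trem2, the target of the antibody, was at 2220 to 2680 CPM with ATV:4D9 and at 3030 to 3160 CPM with ATV:ISO (-0.28, SE 0.094, adjusted p = 0.0409).

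**Figure D4:**
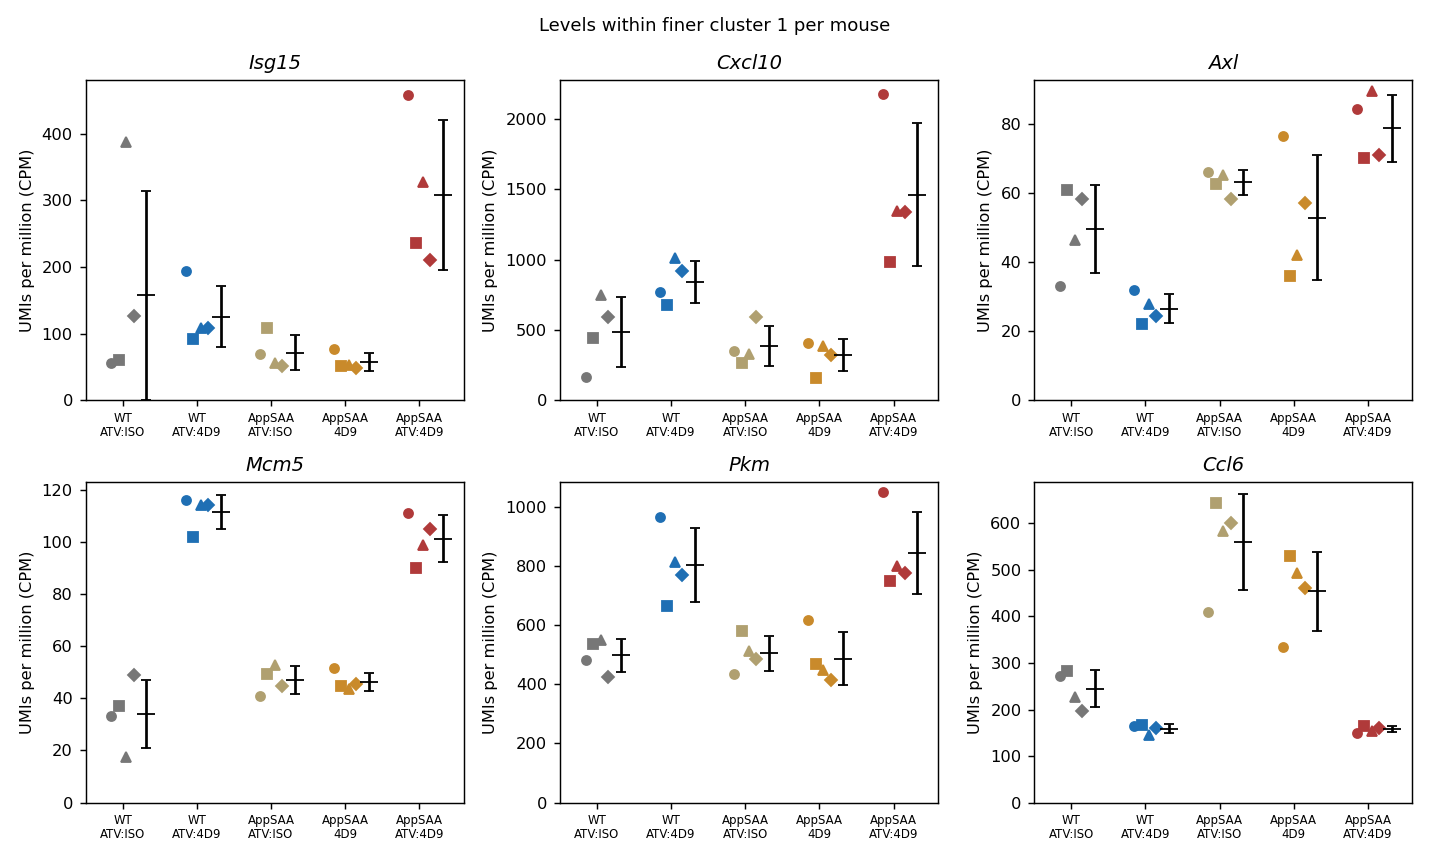
Levels of Isg15, Cxcl10, Axl, Mcm5, Pkm and Ccl6 (y axes, CPM) within finer cluster 1 of each mouse by group (x axis); circles, squares, triangles and diamonds are pools 1 to 4 and bars give mean ± SD of 4 mice. Mcm5 is high in both ATV:4D9 groups (89.8 to 116 CPM), Isg15 is highest in the AppSAA ATV:4D9 group (210 to 458 CPM), and Ccl6 is at 150 to 164 CPM there, as in the WT ATV:4D9 group (145 to 166 CPM) and below the WT ATV:ISO group (197 to 283 CPM).

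The comparison with 4D9 addresses the brain-shuttle site, which 4D9 lacks. Against 4D9 in AppSAA mice, 2145 genes differed with ATV:4D9 (22.8%), 1196 higher (12.7%) and 949 lower (10.1%). This comparison shares its ATV:4D9 mice with the one against ATV:ISO. All 21 interferon genes (median 1.87) and all 26 S phase genes (1.29) rose, as did 10 of 16 glycolysis genes (0.52), 23 of 37 of complex I (0.37) and 25 of 31 of the proteasome. Mif (0.81), Ldha (0.79) and Cox5a (0.60) rose without overlap. Chaf1a, which assembles chromatin behind the replication fork, rose from 5.89 ± 2.14 to 31.6 ± 2.90 CPM (log2 fold change 2.46, SE 0.217, adjusted p = 6.68e-08). The largest fall was that of Mmp12, macrophage elastase, from 66.8, 21.3, 62.2 and 19.6 CPM to 0.838, 7.57, 3.18 and 0.867 CPM (-3.70, SE 0.621, adjusted p = 1.41e-04). Without the AppSAA 4D9 mouse of pool 4, 1300 genes were called.

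Between 4D9 and ATV:ISO in AppSAA mice, edgeR called 0 of 9414 genes (0.0%), with 335 at an unadjusted p under 0.05. DESeq2 called 2 genes and limma voom 0. The sums of both groups held only 63 to 158 cells. Mif stood at 614, 502, 480 and 405 CPM with 4D9 and at 450, 628, 526 and 528 CPM with ATV:ISO, ranges that overlap (-0.10, SE 0.151). The interferon and S phase lists had medians of -0.19 and -0.06.

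In WT mice, replication and energy genes of cluster 1 were also higher with ATV:4D9, and 1 interferon gene passed the test. Against ATV:ISO, 1014 genes differed (10.8%), 580 higher (6.16%) and 434 lower (4.61%), and 1582 with the pool as a block. The ATV:ISO sums held only 23 to 53 cells, and without the mouse of pool 4, the one recorded as female, 606 genes were called. The S phase list rose in 24 of 26 cases (median 1.5). Hells, a chromatin remodeller of replicating cells, stood at 78.9, 87.2, 91.2 and 84.6 CPM with ATV:4D9 and at 18.6, 22.2, 17.4 and 26.2 CPM with ATV:ISO, well apart (log2 fold change 1.99, SE 0.184, adjusted p = 1.81e-07). Brip1, a DNA repair helicase (2.93), and Tk1, thymidine kinase (2.18), rose from under 10 CPM. Glycolysis rose in 7 of 16 cases (0.37), ATP synthase in 10 of 15 (0.46), complex IV in 9 of 11 with 1 fall (0.51) and complex I in 14 of 37 (0.32). Mif rose by 0.87 (adjusted p = 6.18e-04), Ldha by 0.61 (adjusted p = 0.0251) and Cox5a by 0.50 (adjusted p = 0.0219). Of 21 interferon genes only Usp18 was called (1.71, adjusted p = 0.0487), and the list's median was 0.37. With the pool as a block 3 of the 21 were called. Summed interferon levels overlapped, at 1950 to 3010 CPM with ATV:4D9 and 1140 to 2590 CPM with ATV:ISO.

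Several DAM genes fell in WT mice. Of 29 tested, 9 were lower with ATV:4D9 and 1 was higher (median -0.31). Clec7a, the receptor dectin-1, stood at 90.3, 71.0, 93.1 and 90.5 CPM with ATV:4D9 and at 211, 425, 699 and 286 CPM with ATV:ISO, without overlap (log2 fold change -2.15, SE 0.222, adjusted p = 7.21e-07). In the other cells of the same ATV:ISO mice Clec7a stood at 40.0, 62.2, 56.6 and 51.9 CPM. Cluster 1 of these mice was thus far above its neighbours for Clec7a, whereas with ATV:4D9 the other cells stood at 52.2 to 75.7 CPM. Lgals3, galectin-3 (-1.23), and Ank (-1.0) fell as well.

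**Figure D5:**
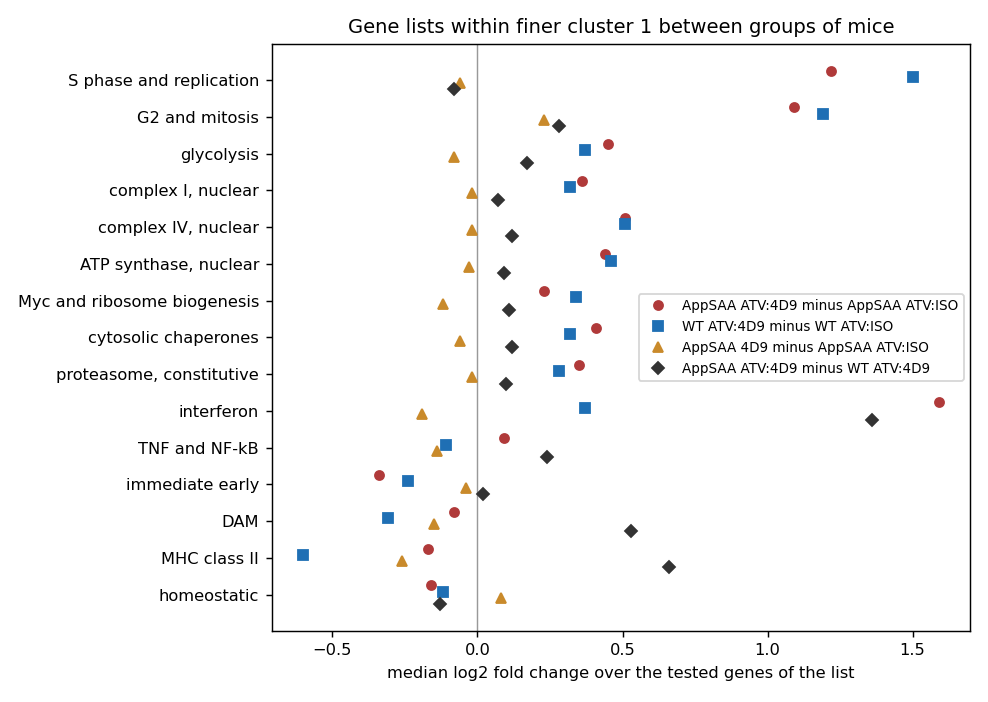
Median log2 fold change of each gene list (rows) within finer cluster 1 for 4 comparisons of mouse groups; the x axis is the median over the tested genes of the list and the vertical line marks no change. The S phase list lies at 1.22 and 1.5 for ATV:4D9 against ATV:ISO in AppSAA and WT mice, while the interferon list lies at 1.59 in AppSAA and 0.37 in WT mice.

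Between the genotypes given ATV:4D9, cluster 1 differed in interferon and DAM genes, while no gene of the S phase, glycolysis or complex I lists was called. In AppSAA against WT mice 178 genes differed (1.89%), 166 higher (1.76%) and 12 lower (0.127%), and 64 rose by more than 2-fold while 0 fell by as much. With the pool as a block 649 genes differed, and without the WT ATV:4D9 mouse of pool 2 the number was 107. Of 21 interferon genes 20 were higher (median 1.36, beside -0.01 over all genes), for instance Oasl2, an antiviral sensor, at 67.7, 52.3, 71.4 and 51.8 CPM in AppSAA and 27.6, 16.4, 18.3 and 19.7 CPM in WT mice (1.63, SE 0.181, adjusted p = 3.42e-06). The genotypes did not overlap for Oasl2, nor for Ifi27l2a, an interferon-induced mitochondrial protein, at 414, 477, 454 and 345 CPM against 156, 87.2, 72.6 and 78.6 CPM (2.15, SE 0.331, adjusted p = 2.07e-04). H2-Q7 (1.82) and H2-Q6 (1.97), MHC class I genes that are near-identical copies and hence uncertain, rose as well. Of 29 DAM genes 10 were higher and 0 lower (0.53), or 17 with the block. The block also called 4 of 6 MHC class II genes higher, against 0 without it (median 0.66), and 4 of 17 TNF and NF-kB genes, against 1. Axl, a receptor for dying cells and amyloid, stood at 84.3, 70.2, 89.5 and 71.1 CPM in AppSAA and at 31.9, 22.2, 27.8 and 24.3 CPM in WT mice, well apart (1.64, SE 0.149, adjusted p = 2.7e-07). Ch25h, cholesterol 25-hydroxylase (1.95), Cxcl13, a B cell chemokine (3.00), and Ass1, the argininosuccinate synthase of arginine recycling (1.74), rose too, as did Fth1, the ferritin heavy chain (9370 ± 978 against 6840 ± 663 CPM, 0.53, adjusted p = 0.0224).

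The falls were small. Cd276, an immune checkpoint ligand (-0.78), Tspan18 (-0.59), Gimap6 (-0.57), Klhl23 (-0.54), Cdk5r1 (-0.52), Crybb1 (-0.50) and Prkab1, a subunit of the energy sensor AMPK (-0.48), were the 7 lower genes that had no overlap and enough counts. None of the 26 S phase genes, 16 glycolysis genes or 37 complex I genes was called, with medians of -0.08, 0.17 and 0.07, although 2 glycolysis genes were higher with the pool as a block. Mif (0.21, SE 0.143), Ldha (0.26, SE 0.160) and Cox5a (0.13, SE 0.122) did not pass the test (edgeR adjusted p = 0.955, 0.887 and 1). Flt1, the 1 endothelial marker called, stood at 5.10 ± 1.59 against 1.75 ± 0.924 CPM (1.60), and the endothelial list summed to 615 to 805 CPM over both groups. Its part in the result was not tested. The median UMIs per cell were 16815.5 in AppSAA and 14934 in WT mice, a difference of 1881.5 (exact permutation p = 0.171, n = 4 each).

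With ATV:ISO the genotypes differed in 2 genes of cluster 1 (0.0212%), 1 in each direction (0.0106% each). Ccl6 was higher in AppSAA mice (410, 644, 584 and 601 CPM against 273, 283, 226 and 197 CPM in WT mice, 1.20, SE 0.144, adjusted p = 7.17e-05), and Rac3, a small GTPase, was lower (9.69 ± 6.20 against 32.7 ± 5.09 CPM, -1.87, SE 0.295, adjusted p = 0.00485). The interferon list was not called there (0 of 21, median 0.13).

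Whether ATV:4D9 changed cluster 1 differently in the genotypes was tested as an interaction, a comparison added after the data were seen. It called 2 of 9414 genes (0.0212%), with 480 at an unadjusted p under 0.05. Ccl6 fell more in AppSAA than in WT mice, where it went from 273, 283, 226 and 197 CPM to 164, 166, 145 and 160 CPM (difference -1.15, SE 0.191, adjusted p = 0.022). After ATV:4D9 its levels in the genotypes overlapped (150 to 164 CPM in AppSAA, 145 to 166 CPM in WT mice). Trim34a, a member of a family of antiviral ubiquitin ligases, stood in AppSAA mice at 20.2, 23.6, 25.4 and 22.9 CPM with ATV:4D9 and at 5.25, 8.80, 16.4 and 14.4 CPM with ATV:ISO, but in WT mice at 13.8, 16.6, 15.3 and 15.8 CPM against 18.6, 18.5, 29.0 and 26.2 CPM (difference 1.55, SE 0.283, adjusted p = 0.0455). The groups moved in opposite directions, apart in AppSAA and in WT mice alike. Of the 21 interferon genes 0 passed this test (median 1.02), and 4 did with the pool as a block. The number called ranged from 0 to 20 when single mice were left out, and it was 0 in 9 of the 16 fits without 1 mouse.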

How the data were processed

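Per the labels and the study's methods, sorted microglia of 4 CellPlex pools were counted with Cell Ranger 6.1.1 on mm10 and clustered with Seurat. The authors deposited raw UMI counts per gene and cell with an annotation of mouse, group and cluster, which also holds the percent of mitochondrial UMIs per cell as deposited. The cell filters were not given in the sources used here, and doublets were not called. As an alternative for the shares, cells under 1000 or over 25000 UMIs were left out. The deposited cells held 92 below and 7141 above these bounds. UMIs of cluster 1 and of all other cells were summed per mouse (at least 20 cells) in 19737 genes, with totals of 344981 to 35696876 UMIs for cluster 1. Ratios to other cells were described, without a test, for genes with at least 50 CPM. Sums of cluster 1 were tested with edgeR 4.0.16 (quasi-likelihood, filterByExpr, TMM, Benjamini-Hochberg 0.05) in a single fit of 20 mice, and shares with exact permutation tests. Limma 3.58.1 (voom, the study's test) and DESeq2 1.42.0 were alternatives. P-values are over mice. The scripts were tested on simulated data.

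Pools are shared batches and so pair the mice. Same-pool mice deviated from their group means with correlations of -0.0173 to 0.729 (40 pairs, median 0.16), and at 0.517 to 0.729 between the ATV:4D9 groups. The fit without the pool was the main one, as written beforehand, with the pool as a block beside it. Genes were named as the 3 markers, the 10 highest and 10 lowest ratios of one sign in all ATV:4D9 mice with up to 4 members per list, and, within the cluster, the 10 largest rises and falls with at least 10 CPM and no overlap with up to 3 called members per list. For the highest, lowest and largest genes this rule fixed the agreement of mice or the lack of overlap. Of all 9414 genes tested, 897 were higher and 1178 lower without overlap in AppSAA ATV:4D9 against ATV:ISO mice. These were 940 and 760 for WT mice, and 234 and 506 for AppSAA against WT with ATV:4D9. The genes given mouse by mouse, and Mcm5, Mcm6, Trem2, Trim34a and Flt1, were singled out after their values were seen. The members and lists were chosen with earlier results of these data known. Promoters came from RefSeq (GRCm38.p6, 250 bases before the start).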

Additional observations from a re-analysis of the deposited data

Results flagged for a closer look

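Of 226 groups of 4 mice examined for the genes described by mouse, 21 held 1 mouse far from the other 3 by Dixon's test, and chance gives about 1 in 20. In WT ATV:4D9 mice, the mouse of pool 1 was high for Isg15 (194 CPM), Irf7 (59.2), Ifit3 (68.3), Cxcl13 (14.9), C5ar1 (333) and Gapdh (2840), and that of pool 2 was low for Mif (573), Clec7a (71.0), Npm1 (818) and Mcm5 (102). In AppSAA ATV:4D9 mice, pool 1 was high for Ldha (768 CPM), Cox5a (371), Pkm (1050) and Atp5g1 (531), and pool 2 was low for Tnf (574). In AppSAA ATV:ISO mice Neu1 (48.3 CPM) and Ch25h (18.9) were low in pool 1 and Spp1 (284) was high in pool 2. In AppSAA 4D9 mice Ch25h (25.7 CPM) and Trem2 (3380) were high in pool 2, and in WT ATV:ISO mice Trem2 was low in pool 3 (2260 CPM).

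The response to ATV:4D9 differed between the genotypes in 3 results, each by a test of the difference itself. The share of cluster 1 rose less in AppSAA mice (difference -13.6 points, exact permutation p = 0.0286 without pairing by pool). With any single pool left out this exact permutation p was 0.1, the smallest that 3 pools allow, and the threshold was not passed. The log2 response of Ccl6 differed by -1.15 (edgeR adjusted p = 0.022) and that of Trim34a by 1.55 (edgeR adjusted p = 0.0455). With 1 mouse left out, 9 of 16 fits called 0 genes in this interaction, and limma voom called 1.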

How the results depend on the processing

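With the pool as a block the share differences were 28.4, 27.9, 42.0 and -13.1 points (AppSAA ATV:4D9 against ATV:ISO and against 4D9, WT ATV:4D9 against ATV:ISO, AppSAA against WT with ATV:4D9) at adjusted p = 0.188, since 4 pairs cannot go below an exact permutation p of 0.125. Leaving out single mice, these ranged from 26.9 to 29.1, 26.4 to 28.6, 41.0 to 43.1 and -14.6 to -12.2, AppSAA 4D9 against ATV:ISO from 0.394 to 0.687, AppSAA against WT with ATV:ISO from 0.331 to 0.629 and the interaction from -16.0 to -12.0 (exact permutation p = 0.1 each, so the call was lost). Against finer cluster 0 alone, 818 of the 3191 described genes were lower and 1180 higher in cluster 1 in every mouse given ATV:4D9. Without single mice 949 to 998 genes were higher and 498 to 615 lower than in the other cells, 273 to 291 were over 2-fold higher than in cluster 0, and the median UMIs of the genotypes differed by 1234.67 to 2672.33.

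Within the cluster, the block called 2837 genes (AppSAA ATV:4D9 against ATV:ISO), 1582 (the same in WT), 649 (AppSAA against WT with ATV:4D9) and 20 (interaction). Without a filter 7 (AppSAA 4D9 against ATV:ISO), 306 and 10 (AppSAA against WT with ATV:4D9 and with ATV:ISO) and 37 (interaction) were called. DESeq2 called 2 for AppSAA 4D9 against ATV:ISO and 16 in the interaction, and limma voom 616 in WT, 308 for AppSAA against WT with ATV:4D9 and 1 in the interaction. The cause of these differences was not tested. Without single mice the numbers were 963 to 1808, 1300 to 2177 (against 4D9), 0 to 1 (4D9 against ATV:ISO), 606 to 985 (WT), 107 to 206 and 1 to 3 (AppSAA against WT with ATV:4D9 and ATV:ISO) and 0 to 20 (interaction). A minimum of 50 cells left 1 WT ATV:ISO mouse and gave no value there. Of 3561 values of named genes under the alternatives, 3276 kept direction and call status, 281 lost the call and 0 reversed with a call. The few others changed sign without a call in either fit. Sums of 23 to 158 cells limit every comparison with ATV:ISO or 4D9.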
